A study of Mus musculus with 15 samples.

Results

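Solute carriers (SLC proteins) are the membrane transporters that move sugars, amino acids, metals, ions, vitamins, lipids and drugs across the plasma membrane and the membranes of organelles. In mouse endometrial organoids, 149 of the 16729 genes in the deposited table were followed here as solute carrier genes. They were chosen by gene symbol (*Slc* followed by a family number, without the mitochondrial *Slc25a* carriers and the noradrenaline transporter *Slc6a2*) and by a mean normalized count of at least 50 over the 15 samples. In total 227 genes had such a symbol, and 78 of them lay below the mean of 50. A normalized count is an estimated number of reads per gene divided by a size factor of the sample. Just inside the limit were *Slc46a3* (mean 52.2), *Slc18a2* (54.4) and *Slc2a4rg-ps* (56.1), and just outside it *Slc2a6* (46.4), *Slc36a1* (44.1) and *Slc7a9* (39.8). *Slc18a2*, *Slc39a2* and *Slc46a3* would have fallen below 50 without the group in which each was highest. The 149 genes belong to 44 families, grouped here in 9 classes by what most members of a family carry. Among them 5 genes, *Slc2a4rg-ps*, *Slc4a1ap*, *Slc7a6os*, *Slc9a3r1* and *Slc9a3r2*, are only named after a transporter and encode none.

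The uterine epithelium sets the composition of the fluid in the lumen and glands, in which the embryo lives before and during implantation. It does so with ion and bicarbonate transporters, amino acid exchangers, glucose and inositol carriers, and importers (*Slc39*, ZIP) and exporters (*Slc30*, ZnT) of zinc. Apical carriers such as the sodium-coupled *Slc5* and *Slc13* families use the sodium gradient that the Na/K-ATPase maintains, and heteromeric amino acid exchangers pair a light chain of the *Slc7* family with the heavy chain encoded by *Slc3a2*. Signals of TGFβ and activin reach SMAD2 and SMAD3 when the type 1 receptors ALK4, ALK5 or ALK7 phosphorylate them.

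RNA was sequenced from organoids grown in Matrigel from the uterine epithelium of adult mice of a mixed C57BL/6J and 129S5/SvEvBrd background, in medium with WNT3a, R-spondin, Noggin, EGF, FGF-10 and HGF. Control organoids came from Smad2flox/flox;Smad3flox/flox mice and were grown with vehicle (DMSO, control + vehicle, n = 3) or with A83-01, an inhibitor of ALK4, ALK5 and ALK7 (control + A83-01, n = 4). *Smad2/3* cKO organoids carried the same floxed alleles and Ltf-iCre, a Cre recombinase expressed from the lactoferrin gene in uterine epithelium, and were grown with vehicle (*Smad2/3* cKO, n = 4) or with A83-01 (*Smad2/3* cKO + A83-01, n = 4). The 3 control + vehicle samples and 3 of the 4 control + A83-01 samples share a number in their labels. Another such number is on 1 *Smad2/3* cKO and 1 *Smad2/3* cKO + A83-01 sample, and 1 is on samples of both genotypes, so whether a number stands for 1 mouse is uncertain. The total of normalized counts per sample lay between 20241771 and 22489489 for control + vehicle. It lay between 21572721 and 24423127 for control + A83-01, and the totals of the *Smad2/3* cKO samples, with a range of 22171502 to 22779453, and of the *Smad2/3* cKO + A83-01 samples, with 23208569 to 23870175, were close to these. The solute carrier genes held 0.915% to 1.29% of these sums.

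The cells and the labels were checked before the comparisons. Epithelial genes were abundant in every sample, with *Epcam* between 19889 and 28844 and *Krt18* between 24934 and 63632 normalized counts. Keratin genes were not steady between the groups. *Krt19* was at 27950 to 43966 in control + vehicle and at 5765 to 19471 in *Smad2/3* cKO (−1.85 on the log2 scale, adjusted p = 0.0118, limma), *Krt8* at 39349 to 59890 and 11942 to 30243 (−1.50, adjusted p = 0.0124), and *Krt18* at 43391 to 63632 and 24934 to 42158 (−0.71, adjusted p = 0.0643), each without overlap. *Epcam*, *Cdh1* and *Muc1* overlapped, the median of the 6 genes was −0.54, and 0 of the 6 passed the thresholds in any comparison. Stromal genes (6 measured, *Col1a2* the most abundant) summed to 96.6, 191 and 27.4 in control + vehicle and to 2.96, 7.43, 24.7 and 15.5 in *Smad2/3* cKO, lower without overlap. They summed to 4.79 to 54.7 in control + A83-01 and 3.99 to 129 in *Smad2/3* cKO + A83-01. *Col1a2* was at −3.70 on the log2 scale in *Smad2/3* cKO (adjusted p = 0.0398, and 0.0749 without *Smad2/3* cKO replicate 2), and *Cdh5*, an endothelial gene, was at most 27.6. The muscle actin gene *Acta2* was at 176, 101 and 53.6 in control + vehicle and between 4.73 and 21.0 in *Smad2/3* cKO (−3.12 on the log2 scale, adjusted p = 0.00841, limma). The 6 leukocyte genes, of which *Cd68* was the most abundant, had sums of 1315 to 2938 in control + vehicle and of 3407 to 8762 with A83-01 in control. Their sums were 2117 to 8267 in *Smad2/3* cKO organoids and 4032 to 7975 when A83-01 was added to these. *Ptprc* (CD45), a leukocyte gene, was at 12.5, 17.4 and 38.6 in control + vehicle, between 68.5 and 236 in control + A83-01 and between 123 and 309 in *Smad2/3* cKO, where it rose by 3.33 on the log2 scale (adjusted p = 0.00228, limma). Of the 6 leukocyte genes tested for *Smad2/3* cKO it was the only one past the thresholds, and of the 4 tested for A83-01 in control 0 passed, or *Ptprc* and *Cd68*, both higher, with the replicate number as a block (2.61 and 1.27, adjusted p = 0.00716 and 0.00311). *Lyz2*, of the same list, was lower with A83-01 in control, at 41.2 to 70.8 against 5.24 to 15.2, without overlap. In *Smad2/3* cKO *Lyz2* was at −0.37 on the log2 scale, and at −2.47 without replicate 2 (adjusted p = 0.925 and 0.214, limma). The library *Smad2/3* cKO replicate 2 stood apart. It held 3372 normalized counts of *Lyz2*, 351 of *Adgre1* and 155 of *C1qa*, all macrophage genes, whereas *C1qa* was listed at 0 in the other 14 samples and *Lyz2* was at most 86.9 in them. Calls for *Smad2/3* cKO vs. control + vehicle were therefore repeated without it. *Ptprc* (3.15, adjusted p = 0.00698) and *Acta2* (−3.43, adjusted p = 0.00894) then still passed, and *Krt19* was at −1.63 (adjusted p = 0.0242), *Krt8* at −1.34 (0.029) and *Krt18* at −0.61 (0.136). Whether the keratin, stromal, leukocyte and muscle genes have a part in the solute carrier differences was not tested, and in bulk RNA fewer cells of a type and less RNA per cell cannot be told apart. *Smad2* was at 1335, 1132 and 1045 in control + vehicle and between 821 and 924 in *Smad2/3* cKO (log2 fold change −0.41, adjusted p = 0.0656), and *Smad3*, at 1532, 1741 and 1599 against 1170 to 1977, overlapped between these groups (−0.07, adjusted p = 0.827). These values cover whole genes, so reads of the floxed exons cannot be told apart from the rest.

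RefSeq gave promoter windows (250 bases before to 50 after a start site, GRCm38.p6) for 110 of the 149 genes. They were searched on both strands for GTCTG, the SMAD binding element, which reads CAGAC on the other strand. Of all 32851 windows 49.6% held it, of the 149 windows of these 110 genes (some have more than 1) 49%, and of the 25 windows belonging to genes that passed the thresholds in a comparison 60%. These 25 windows belong to 17 genes, and some windows of *Slc7a7* overlap and hold the same matches. A match is a description of the letters and not a binding site. The bases before the start site are shown for the gene with the largest rise (*Slc46a2*, minus strand, chr4:59915057-59915306), a magnesium transporter gene that rose in both main comparisons (*Slc41a2*, minus strand, chr10:83337818-83338067) and a choline transporter gene that fell (*Slc44a4*, plus strand, chr17:34914216-34914465), 5′ to 3′ and with each match in capitals.
Slc46a2: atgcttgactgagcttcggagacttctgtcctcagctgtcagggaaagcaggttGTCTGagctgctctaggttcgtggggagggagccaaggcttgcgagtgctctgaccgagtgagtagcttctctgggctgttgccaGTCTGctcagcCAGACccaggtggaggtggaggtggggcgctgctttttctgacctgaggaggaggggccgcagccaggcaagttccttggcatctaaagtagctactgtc
Slc41a2: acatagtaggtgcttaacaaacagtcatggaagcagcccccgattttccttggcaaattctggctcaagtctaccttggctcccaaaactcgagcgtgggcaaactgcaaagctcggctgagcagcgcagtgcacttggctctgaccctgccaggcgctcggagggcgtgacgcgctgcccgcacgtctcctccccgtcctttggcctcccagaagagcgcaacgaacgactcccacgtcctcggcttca
Slc44a4: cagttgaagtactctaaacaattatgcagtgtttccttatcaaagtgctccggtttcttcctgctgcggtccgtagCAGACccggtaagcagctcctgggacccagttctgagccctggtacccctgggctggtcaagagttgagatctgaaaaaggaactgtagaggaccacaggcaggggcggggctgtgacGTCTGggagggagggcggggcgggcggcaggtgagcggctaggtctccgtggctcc
The stretch of *Slc46a2* held 3 matches, beginning 196, 111 and 100 bases before the start site, that of *Slc44a4* held 2, beginning 174 and 56 bases before it, and that of *Slc41a2* held 0.

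Zinc transporters of the *Slc39* (ZIP) family took the first 3 places among solute carriers per transcript length in the mean over all samples. Mean normalized counts ran from 52.2 to 15505 over the 149 genes, with quartiles of 377, 702 and 1781. Per kb of the longest coding transcript, the zinc importer *Slc39a4* (ZIP4, mutated in acrodermatitis enteropathica) came first with a mean of 5638 over all samples, followed by *Slc39a7* (ZIP7, which releases zinc from the endoplasmic reticulum) with 4231 and *Slc39a8* (ZIP8) with 3745. The first place of *Slc39a4* came from the control samples, with 11447 per kb in control + vehicle and 5948 in control + A83-01. In *Smad2/3* cKO it was at 3344, behind *Slc39a7* (4087) and *Slc39a8* (3716), and in *Smad2/3* cKO + A83-01 it was at 3266, again behind both (4495 and 3546). The glutamine transporter *Slc1a5* came next after *Slc39a4* in control + vehicle, with 4247 against 4019 for *Slc39a7* and 3612 for *Slc39a8*, so the order differed between groups. Next in the mean over all samples came *Slc1a5* with 3585, the glucose transporter *Slc2a1* (GLUT1) with 2377, the iron exporter *Slc40a1* (ferroportin) with 2164 and the choline transporter-like *Slc44a4* with 2116. *Slc9a3r1*, a scaffold protein and no carrier, was at 1857, the exchanger heavy chain *Slc3a2* at 1557 and *Slc35a4* of the nucleotide sugar transporter family at 1550. Of these 10 genes, only *Slc39a4* and *Slc44a4* passed the thresholds in a comparison. *Slc39a7*, for example, had a mean of 9324 ± 1135 (SD, n = 3) in control + vehicle and 9902 ± 1529 (n = 4) with A83-01, against 9483 ± 1161 and 10428 ± 1348 (both n = 4) in *Smad2/3* cKO without and with the inhibitor. The spread between replicates was slightly wider for solute carrier genes than for all genes with a mean of at least 50, with a median SD of log2 values of 0.302 against 0.257 in control + vehicle and 0.329 against 0.259 in *Smad2/3* cKO.

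Blocking the receptors in control organoids (control + A83-01 vs. control + vehicle) left 5 solute carrier genes higher and 2 lower. The folate carrier family gene *Slc46a2*, the organic anion carrier *Slc17a4*, the fatty acid transporter *Slc27a6*, the cation extruder *Slc47a1* and the magnesium transporter *Slc41a2* rose. The urea transporter *Slc14a1* and *Slc4a11* of the bicarbonate transporter family fell. Passing the thresholds means a p below 0.01 after Benjamini-Hochberg adjustment over all genes tested and a change of more than 1.4-fold up or down. The test was limma on log2(normalized count + 1), and all fold changes here are on that scale. All 149 genes reached the minimum mean of 10 in the samples compared. Of them 5 averaged below 10 in control + vehicle and reached it through the other group, *Slc46a2*, *Slc27a6* and *Slc47a1* among the higher genes here, and *Slc16a12* and *Slc17a1*. The 5 higher genes are 3.36% of the 149, where 1.19% of all 13009 genes tested were higher, and the 2 lower are 1.34%, where 1.08% of all genes were lower. Among genes with a mean of at least 50 over the 15 samples, 1.35% were higher and 1.03% lower. Since genes that reach the minimum through 1 group alone had to differ, the counts were also taken over genes averaging at least 10 in each group. There 2 of 144 solute carrier genes (1.39%) were higher and 2 lower (1.39%), against 1.05% and 0.909% of 12435 genes, which is near the background. The median log2 fold change of the 149 genes was 0.03, that of all genes −0.01. At an unadjusted p below 0.05 there were 52 of the 149 (34.9%, all genes 22.2%). Here and below, the shares of all genes at this p cover genes averaging at least 10, not the 50 that chose the solute carriers. They are therefore not matched for level. Control samples with the same replicate number also share the label number, so the replicate number was used as a block as well. Then 9 genes passed, 7 higher and 2 lower (all genes 1.62% and 1.45%), *Slc27a6* no longer did (adjusted p = 0.0125), and *Slc5a8* (1.89, adjusted p = 0.00115), *Slc7a4* (1.13, 0.00353) and *Slc33a1* (1.07, 0.00847) did. The count depended on single libraries. It was 4, 2 and 4 without control + vehicle replicate 1, 2 or 3, and 4 and 3 without control + A83-01 replicate 3 or 4. The share of all genes was 2.27% with all samples and 0.408%, 0.377%, 0.987%, 1.08% and 0.892% in these fits. Of the 7 calls, those of *Slc46a2* and *Slc17a4* held without each sample in turn.

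Deletion of *Smad2* and *Smad3* (*Smad2/3* cKO vs. control + vehicle) left 15 solute carrier genes higher and 9 lower. The higher genes were carriers of organic anions and dicarboxylates (*Slc17a4*, *Slc17a1*, *Slc13a2*), drugs and creatine (*Slc47a1*, *Slc16a12*), inositol, glucose and monocarboxylates (*Slc5a3*, *Slc5a1*, *Slc5a8*), together with *Slc46a2*, *Slc27a6*, *Slc41a2*, *Slc7a4*, *Slc30a4*, *Slc33a1* and *Slc39a11*. The lower genes were the zinc importers *Slc39a4*, *Slc39a6* and *Slc39a10*, the bicarbonate family genes *Slc4a11* and *Slc4a4*, the lipid and choline genes *Slc27a2* and *Slc44a4*, the amino acid exchanger *Slc7a7* and *Slc22a18*. Among the higher genes are all 5 that averaged below 10 in control + vehicle. The 15 and 9 genes are 10.1% and 6.04% of the 149 genes, where 4.08% of all 13149 genes tested were higher and 3.3% lower. Among genes with a mean of at least 50, the level that chose the solute carriers, 4.54% were higher and 3.34% lower. Over genes averaging at least 10 in each group, 10 of 144 solute carrier genes (6.94%) were higher and 9 (6.25%) lower, against 3.78% and 3.06% of 12446 genes. The median log2 fold change of the 149 was 0.11, against 0.00 for all genes, and 67 (45%, all genes 33.7%) had an unadjusted p below 0.05. These shares are not matched for level, and the 67 include the 5 genes that averaged below 10 in control + vehicle. Control + vehicle samples serve in both comparisons, so the values below are set side by side and not counted as repeats of each other. Without *Smad2/3* cKO replicate 2, 17 genes passed and 16 of them were among the 24, while the share of all genes past the thresholds in either direction went from 7.38% to 4.97%. The 8 that no longer passed were *Slc44a4*, *Slc5a1*, *Slc17a1*, *Slc7a4*, *Slc39a6*, *Slc39a10*, *Slc39a11* and *Slc4a4*. The count was 7 and 9 without control + vehicle replicate 1 or 2, and 15 and 10 without *Smad2/3* cKO replicate 1 or 4, where 2.13%, 2.19%, 3.98% and 3.37% of all genes passed. Of the 24 calls, those of *Slc46a2*, *Slc17a4*, *Slc13a2*, *Slc41a2* and *Slc4a11* held without each sample in turn. Those of *Slc44a4*, *Slc5a1*, *Slc39a10*, *Slc39a11* and *Slc4a4* were each lost in 6 of 7 such fits.

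**Figure D1:**
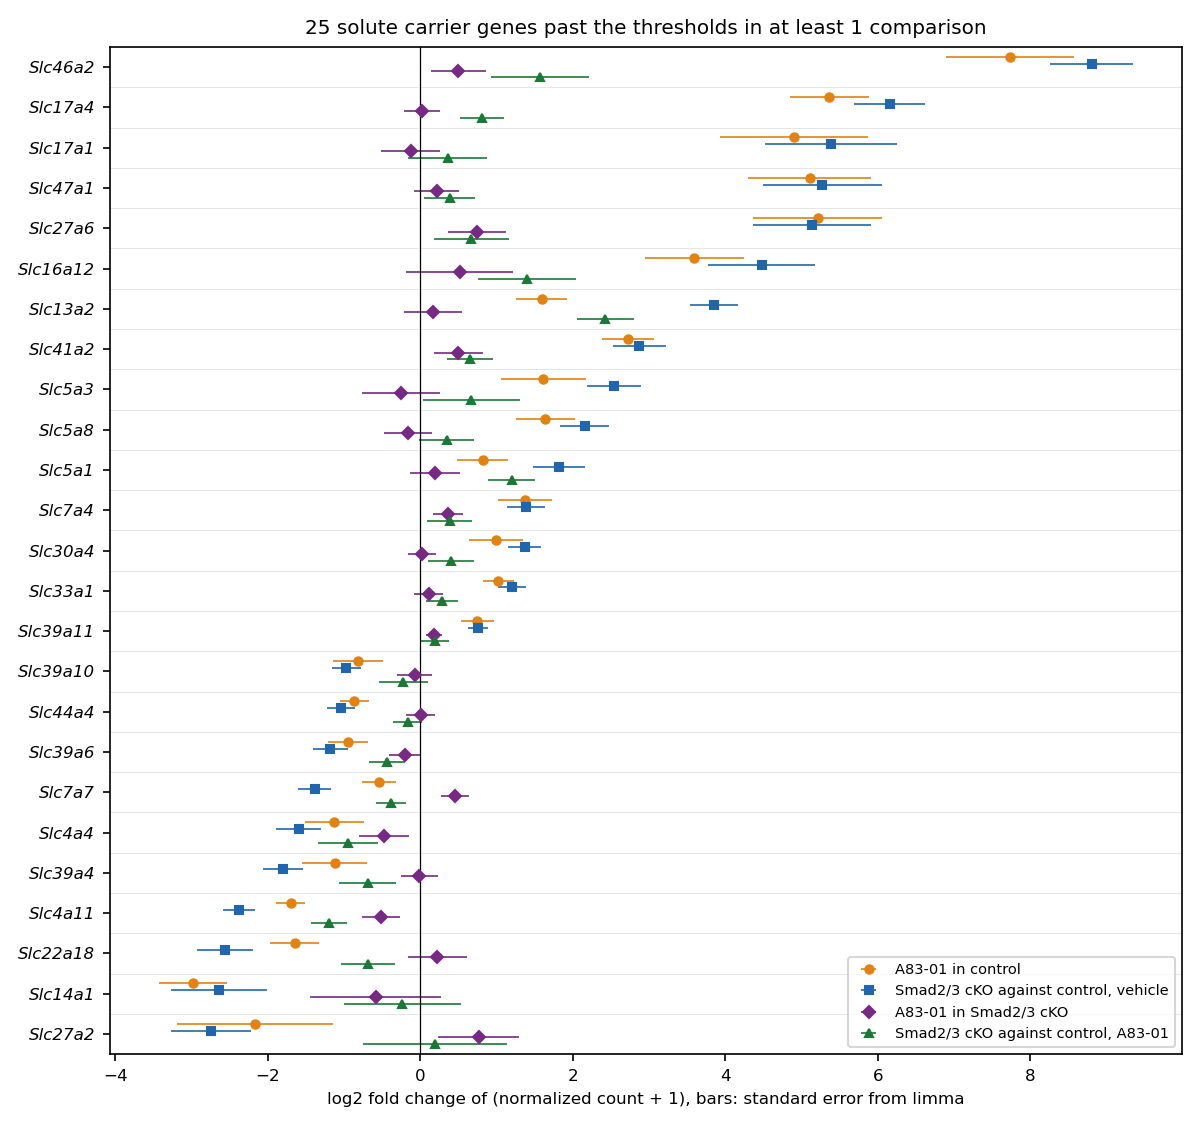
Log2 fold changes of the normalized count plus 1 (horizontal axis) for the 25 solute carrier genes past the thresholds in at least 1 comparison, with standard errors from limma as bars and symbols for the 4 comparisons of groups. For the 24 genes past the thresholds in *Smad2/3* cKO vs. control + vehicle (squares), the fold changes of A83-01 in *Smad2/3* cKO organoids (diamonds) are at most 0.77 in size.

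Among carriers of vitamins and nucleosides, *Slc46a2* (ENSMUSG00000028386, GRCm38 chr4:59905126-59915056), a relative of the folate carrier best known from thymic epithelium, was at 0, 3.56 and 1.78 in the control + vehicle samples. With A83-01 it was at 193, 218, 1042 and 1370.3, in *Smad2/3* cKO at 802, 997, 795 and 1851, and in *Smad2/3* cKO + A83-01 at 2247, 797, 1272 and 2067. Every one of the 12 samples outside control + vehicle was therefore more than an order of magnitude above the 3 control + vehicle samples, and control + A83-01 replicates 1 and 2 were lower than the other 10. These replicates also carry the lower label numbers of their group. The log2 fold changes were 7.73 (standard error 0.84, adjusted p = 0.00157) for A83-01 in control and 8.80 (0.55, 6.78e-05) for *Smad2/3* cKO. Control values near 0 leave their size to the pseudocount, and with 0.1 or 10 in place of 1 they were 9.13 or 5.44 and 10.20 or 6.49. *Slc46a2* averaged below 10 in control + vehicle and reached the minimum mean only through the other group, so its p-values are a description. The other 13 genes of the class, among them the thiamine and riboflavin transporters (*Slc19a2*, *Slc52a2*, *Slc52a3*) and nucleoside carriers (*Slc28a3*, *Slc29a1*), did not pass in either comparison.

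Among carriers of organic solutes and drugs, *Slc17a4* (ENSMUSG00000021336, chr13:23895890-23915009), a carrier of organic anions in gut and kidney, was at 24.8, 18.3 and 6.15 in control + vehicle, at 428, 417, 1009.6 and 862 in control + A83-01, and at 1602, 971, 686 and 1302 in *Smad2/3* cKO. Both groups lay above every control + vehicle sample and overlapped with each other, and the log2 fold changes against control + vehicle were 5.36 (standard error 0.52, adjusted p = 0.00097) and 6.15 (0.46, 0.000172). *Slc17a1* (chr13:23867750-23895730) is the neighbouring gene and encodes a phosphate and urate carrier of the kidney. It was at 0, 8.76 and 0 in control + vehicle, at 152, 82.8, 27.1 and 44.7 in control + A83-01 (log2 fold change 4.90, adjusted p = 0.019) and at 175, 73.8, 60.0 and 78.1 in *Smad2/3* cKO (5.38, adjusted p = 0.00408). The size for *Smad2/3* cKO depends on the pseudocount (3.00 to 7.63 over the alternatives), and with 0.1 the call was lost. *Slc17a1* averaged below 10 in control + vehicle and reached the minimum mean only through the other group, so its p-values are a description. The kidney-type dicarboxylate carrier *Slc13a2* (NaDC1, chr11:78397087-78422217), which takes up citrate and succinate, stood out by its order of groups. It was at 78.7, 92.4 and 93.2 in control + vehicle, 386, 158, 275 and 300.3 in control + A83-01, 2407, 1075, 1042 and 997 in *Smad2/3* cKO and 1653, 2752, 1051 and 891 in *Smad2/3* cKO + A83-01. On the log2 scale A83-01 in control gave 1.59 (standard error 0.33, adjusted p = 0.0242) and *Smad2/3* cKO 3.85 (0.31, 0.000204). Every *Smad2/3* cKO sample, with or without A83-01, was above every control + A83-01 sample.

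*Slc47a1* (MATE1), which extrudes organic cations, was at 0, 0.89 and 8.95 in control + vehicle and between 58.2 and 136 in control + A83-01, and between 78.6 and 163 in *Smad2/3* cKO (log2 fold changes 5.11 and 5.27, adjusted p = 0.00741 and 0.00283). These sizes also depend on the pseudocount (2.99 to 6.55 and 3.14 to 6.72 over the alternatives), and the call for A83-01 in control was lost in 10 of 20 alternatives, among them a pseudocount of 0.1, no filter, a minimum mean of 50 and 6 of 7 fits without 1 sample. The urea transporter *Slc14a1* moved the other way. It was at 4638, 3253 and 6354 in control + vehicle and at 1042, 903, 415 and 286 in control + A83-01, which is −2.98 on the log2 scale (standard error 0.45, adjusted p = 0.00615). In *Smad2/3* cKO it was at 2455, 460.3, 919 and 281, highest in replicate 1 and all below every control + vehicle sample. The fold change of −2.64 did not pass (adjusted p = 0.0198). The call of *Slc14a1* for A83-01 in control was lost in 8 of 20 alternatives, among them 5 of 7 fits without 1 sample. *Slc22a18*, an imprinted gene of the organic cation transporter family, was at 582, 482 and 600.4 in control + vehicle, at 282, 200.2, 147 and 114 in control + A83-01 (−1.65, adjusted p = 0.0176) and at 80.1, 115, 158 and 51.0 in *Smad2/3* cKO (−2.56, adjusted p = 0.00249). In all, 4 of the 22 genes of this class were higher in *Smad2/3* cKO and 1 lower (all genes 4.08% and 3.3%), and 2 were higher and 1 lower with A83-01 in control (all genes 1.19% and 1.08%). *Slc17a1* and *Slc47a1*, which these counts include, averaged below 10 in control + vehicle. Both reached the minimum mean only through the other group, so their p-values are a description.

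**Figure D2:**
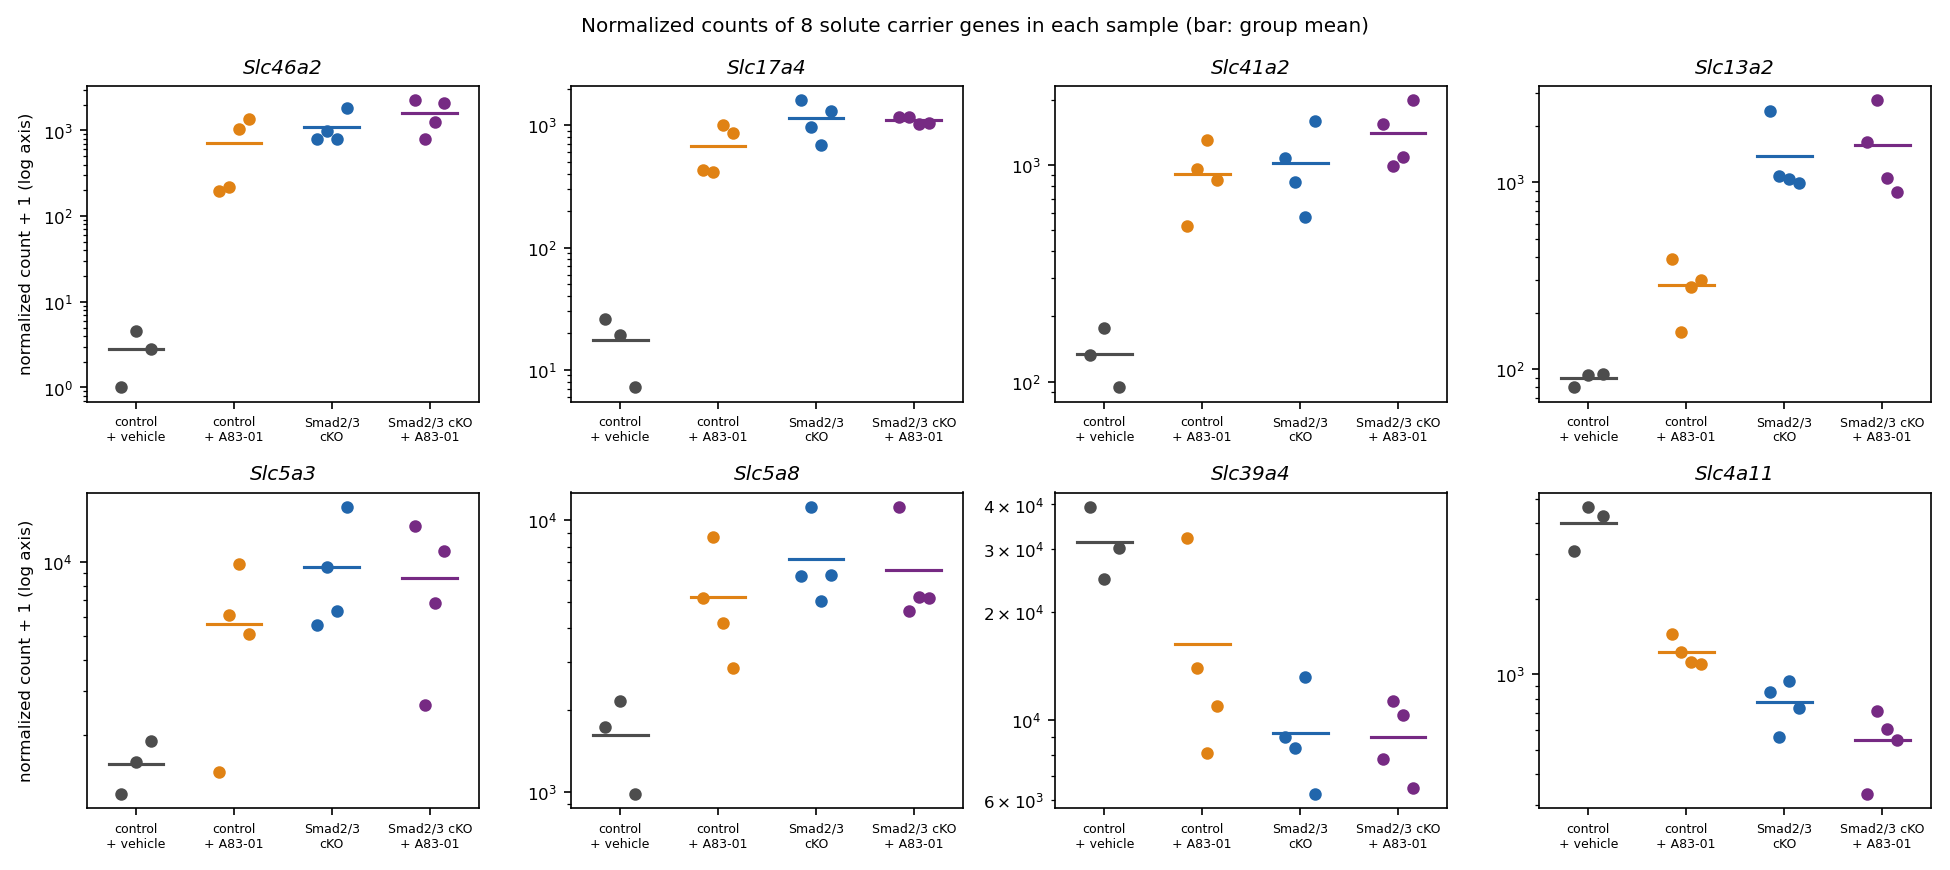
Normalized count plus 1 (log axis) of 8 solute carrier genes in each of the 15 samples, by group, with the group mean as a bar. *Slc46a2*, *Slc17a4*, *Slc41a2* and *Slc13a2* are lowest in the 3 control + vehicle samples, *Slc4a11* is highest there, and 1 control + A83-01 sample lies within the control + vehicle range for *Slc5a3* and *Slc39a4*.

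Of the 12 genes of the sugar class, 3 rose in *Smad2/3* cKO (all genes 4.08%) and 0 with A83-01 in control (all genes 1.19%), or 1 (*Slc5a8*) with the replicate block (all genes 1.62%), and all 3 belong to the *Slc5* family. *Slc5a3* (SMIT1, ENSMUSG00000089774), which takes up the osmolyte myo-inositol, was at 1147, 1549 and 1876 in control + vehicle and at 5564, 9542, 6332 and 16762 in *Smad2/3* cKO, which is 2.54 on the log2 scale (standard error 0.35, adjusted p = 0.0023). In control + A83-01 it was at 1412, 6129.9, 9826 and 5115, so that replicate 1 lay among the control + vehicle samples and the other 3 above them (1.61, standard error 0.56, adjusted p = 0.124). In each of the 3 pairs of control samples that share a label number, *Slc5a3* was higher with A83-01. *Slc5a8* (SMCT1), which carries lactate and short-chain fatty acids and is no sugar transporter, was at 1727, 2156 and 979 in control + vehicle and at 6247, 11175, 5022 and 6267 in *Smad2/3* cKO (2.15, standard error 0.32, adjusted p = 0.00289). With A83-01 in control it was at 5149, 8670.1, 4175 and 2853, also above every control + vehicle sample (1.64, adjusted p = 0.0361, and with the replicate block 1.89, adjusted p = 0.00115). *Slc5a1* (SGLT1), the glucose and galactose cotransporter, was at 267, 284 and 129 in control + vehicle and at 1218, 696, 600.0 and 646 in *Smad2/3* cKO (1.82, adjusted p = 0.00701). Its call was lost in 6 of 7 fits without 1 sample. The facilitative transporter *Slc2a1* was higher in none of the comparisons at the thresholds (0.53 and 0.36, adjusted p = 0.173 and 0.407). The summed normalized count of the class was 14745 to 18107 in control + vehicle, 21203 to 29010 in control + A83-01 and 26990 to 39314 in *Smad2/3* cKO. Most of that range came from the inositol and the monocarboxylate carrier: without *Slc5a3* and *Slc5a8* the other 10 genes summed to 11041 to 15251, 13779 to 15009 and 14378 to 17033, which overlap.

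Of the 12 *Slc39* genes, 1 was higher and 3 were lower in *Smad2/3* cKO (all genes 4.08% and 3.3%). Of the 6 *Slc30* genes, 1 was higher and 0 were lower. Without *Smad2/3* cKO replicate 2, the calls of *Slc39a6*, *Slc39a10* and *Slc39a11* were lost. *Slc39a4* (ENSMUSG00000063354, chr15:76612383-76617384), the gene with the highest mean of all 149 over the 15 samples but not within either *Smad2/3* cKO group, was at 39392, 24750.3 and 30295 in control + vehicle and at 8989.5, 8379.6, 13184 and 6234 in *Smad2/3* cKO, without overlap (log2 fold change −1.80, standard error 0.26, adjusted p = 0.00253). In control + A83-01 it was at 32333, 14013, 8128 and 10954. Replicate 1 was at the control + vehicle level and the other 3 were below it, and the difference of −1.13 (standard error 0.42) did not pass (adjusted p = 0.153). In each of the 3 pairs of control samples that share a label number, *Slc39a4* was lower with A83-01. The related importers *Slc39a6* (ZIP6) and *Slc39a10* (ZIP10) were lower in *Smad2/3* cKO. The log2 difference was −1.18 for *Slc39a6* (adjusted p = 0.0079) and −0.97 for *Slc39a10* (adjusted p = 0.00849). *Slc39a6* was at 1920.2, 2396 and 1471 in control + vehicle and at 690.1, 673, 1036 and 1011 in *Smad2/3* cKO. *Slc39a10* was at 1177, 923 and 1184 in control + vehicle and at 452, 496, 675 and 628 in *Smad2/3* cKO. *Slc39a11* (ZIP11) was higher, at 2713, 2263 and 2086 against 3972, 4033, 4107 and 3705 (0.76, adjusted p = 0.00476). *Slc30a4* (ZnT4), which loads zinc into secretory vesicles and milk, was at 520.0, 778 and 818 in control + vehicle and at 2385, 1515, 1530.5 and 1863 in *Smad2/3* cKO (1.37, adjusted p = 0.00387).

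The magnesium transporter *Slc41a2* (ENSMUSG00000034591, chr10:83230848-83337882) was at 132, 177 and 93.1 in control + vehicle, at 521, 955, 1305 and 848 in control + A83-01 and at 1077, 835, 577 and 1596 in *Smad2/3* cKO. Neither group overlapped with control + vehicle (2.72, standard error 0.34, adjusted p = 0.00275, and 2.87, standard error 0.35, adjusted p = 0.00125). Of the 25 genes of the metal class, 3 were thus higher and 3 lower in *Smad2/3* cKO (all genes 4.08% and 3.3%), and *Slc41a2* alone passed with A83-01 in control (all genes 1.19% higher). The iron exporter *Slc40a1*, at 6191 ± 502 (SD, n = 3) in control + vehicle and 7886 ± 1399 (n = 4) in *Smad2/3* cKO, did not pass (0.34, adjusted p = 0.17). The zinc-binding metallothioneins *Mt1* and *Mt2* did not pass either (0.56 and 0.57 in *Smad2/3* cKO, adjusted p = 0.25 and 0.225).

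Among carriers of acid, base and inorganic ions, *Slc4a11* (ENSMUSG00000074796, chr2:130684113-130697519), a member of the bicarbonate transporter family that conducts protons and is mutated in corneal dystrophy, was at 3088, 4642 and 4288 in control + vehicle. It was at 1449.5, 1227, 1118 and 1093 in control + A83-01, at 849, 559, 943 and 733 in *Smad2/3* cKO and at 332, 710.2, 604 and 545 in *Smad2/3* cKO + A83-01. None of the 12 samples reached the lowest control + vehicle sample, and the *Smad2/3* cKO samples were all below the control + A83-01 samples. The log2 fold changes were −1.70 (standard error 0.19, adjusted p = 0.0017) and −2.38 (0.21, 0.000304). The sodium bicarbonate cotransporter *Slc4a4* (NBCe1) was at 916, 1092 and 1393 in control + vehicle and at 234, 388, 583 and 352 in *Smad2/3* cKO (−1.60, adjusted p = 0.0067), and at 468, 906, 622 and 255 in control + A83-01 (−1.13, adjusted p = 0.119). Its call in *Smad2/3* cKO was lost in 6 of 7 fits without 1 sample. Of the 30 genes of the class, 2 were lower in *Smad2/3* cKO (all genes 3.3%) and 1 with A83-01 in control (all genes 1.08%). The other 28 genes did not pass. Among them was the sodium, potassium and chloride cotransporter *Slc12a2* (NKCC1), at 15121, 18316 and 12615 in control + vehicle and at 8771, 10835, 7612 and 6951 in *Smad2/3* cKO (−0.85, adjusted p = 0.0159), named here after its values were seen.

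Of the 8 genes for carriers of lipids and choline, *Slc27a6* (FATP6) was at 5.72, 0 and 0 in control + vehicle, at 57.2, 32.4, 104 and 116 in control + A83-01 (5.21, standard error 0.84, adjusted p = 0.00837) and at 53.6, 56.9, 92.9 and 64.4 in *Smad2/3* cKO (5.14, standard error 0.77, adjusted p = 0.00303). The sizes depend on the pseudocount (2.78 to 7.47 and 2.70 to 7.40 over the alternatives). With A83-01 in control the call was lost at a pseudocount of 0.1, with the replicate block (adjusted p = 0.0125) and in 6 of 7 fits without 1 sample. *Slc27a6* averaged below 10 in control + vehicle and reached the minimum mean only through the other group, so its p-values are a description. *Slc27a2* (FATP2), a transporter and acyl-CoA synthetase of very long chain fatty acids, was at 556, 659.7 and 258 in control + vehicle and at 48.7, 140.2, 90.1 and 32.5 in *Smad2/3* cKO (−2.75, standard error 0.52, adjusted p = 0.0078). In control + A83-01 the 4 values of 381, 366, 33 and 21.2 fell into pairs, replicates 1 and 2 within the control + vehicle range and 3 and 4 far below it (−2.17, standard error 1.02, adjusted p = 0.257). Replicates 1 and 2 also carry the lower label numbers of this group. In each of the 3 pairs of control samples that share a label number, *Slc27a2* was lower with A83-01. *Slc44a4* was at 8805, 6885 and 7793 in control + vehicle, at 5788, 3989, 3674 and 3921 in control + A83-01 (−0.87, adjusted p = 0.0295) and at 3814, 3887, 4892 and 2853 in *Smad2/3* cKO (−1.04, adjusted p = 0.00603). Its call in *Smad2/3* cKO was lost in 6 of 7 fits without 1 sample. The summed count of the class was 20967 to 22116 in control + vehicle, 14839 to 15633 in control + A83-01 and 14267 to 16209 in *Smad2/3* cKO.

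Of the 22 amino acid genes, 1 was higher and 1 lower in *Smad2/3* cKO, a share near that of all genes (4.08% and 3.3%), and 0 passed with A83-01 in control (all genes 1.19% and 1.08%), or 1 (*Slc7a4*) with the replicate block (all genes 1.62% higher). *Slc7a7* (y+LAT1), the light chain of an exchanger that releases cationic amino acids, was at 1421, 1513 and 2209 in control + vehicle and at 540.4, 541, 699.6 and 835 in *Smad2/3* cKO (−1.39, standard error 0.22, adjusted p = 0.00368). Its heavy chain partner *Slc3a2* was at 6982, 6082 and 4594 against 3737, 3825, 3553 and 2942, and did not pass (−0.73, adjusted p = 0.0175). *Slc7a4* was at 1427, 1255 and 2437 in control + vehicle and at 3149.9, 4706, 4478 and 5075 in *Smad2/3* cKO (1.39, adjusted p = 0.00601). *Slc16a12*, a creatine transporter of the monocarboxylate family, was at 1.92, 4.36 and 7.17 in control + vehicle, at 26.6, 52.2, 109 and 84.1 in control + A83-01 (3.59, adjusted p = 0.0133) and at 304, 89.1, 40.8 and 138 in *Smad2/3* cKO (4.48, standard error 0.70, adjusted p = 0.00369). It averaged below 10 in control + vehicle and reached the minimum mean only through the other group, so these p-values are a description. *Slc33a1*, which brings acetyl-CoA into the endoplasmic reticulum, was at 949.6, 1243 and 946 in control + vehicle and at 2664, 2602, 1769 and 2639.7 in *Smad2/3* cKO (1.20, adjusted p = 0.00347). *Slc5a1*, *Slc7a4*, *Slc30a4*, *Slc33a1* and *Slc39a11* are named because they complete the 15 higher genes, after their values were seen.

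**Figure D3:**
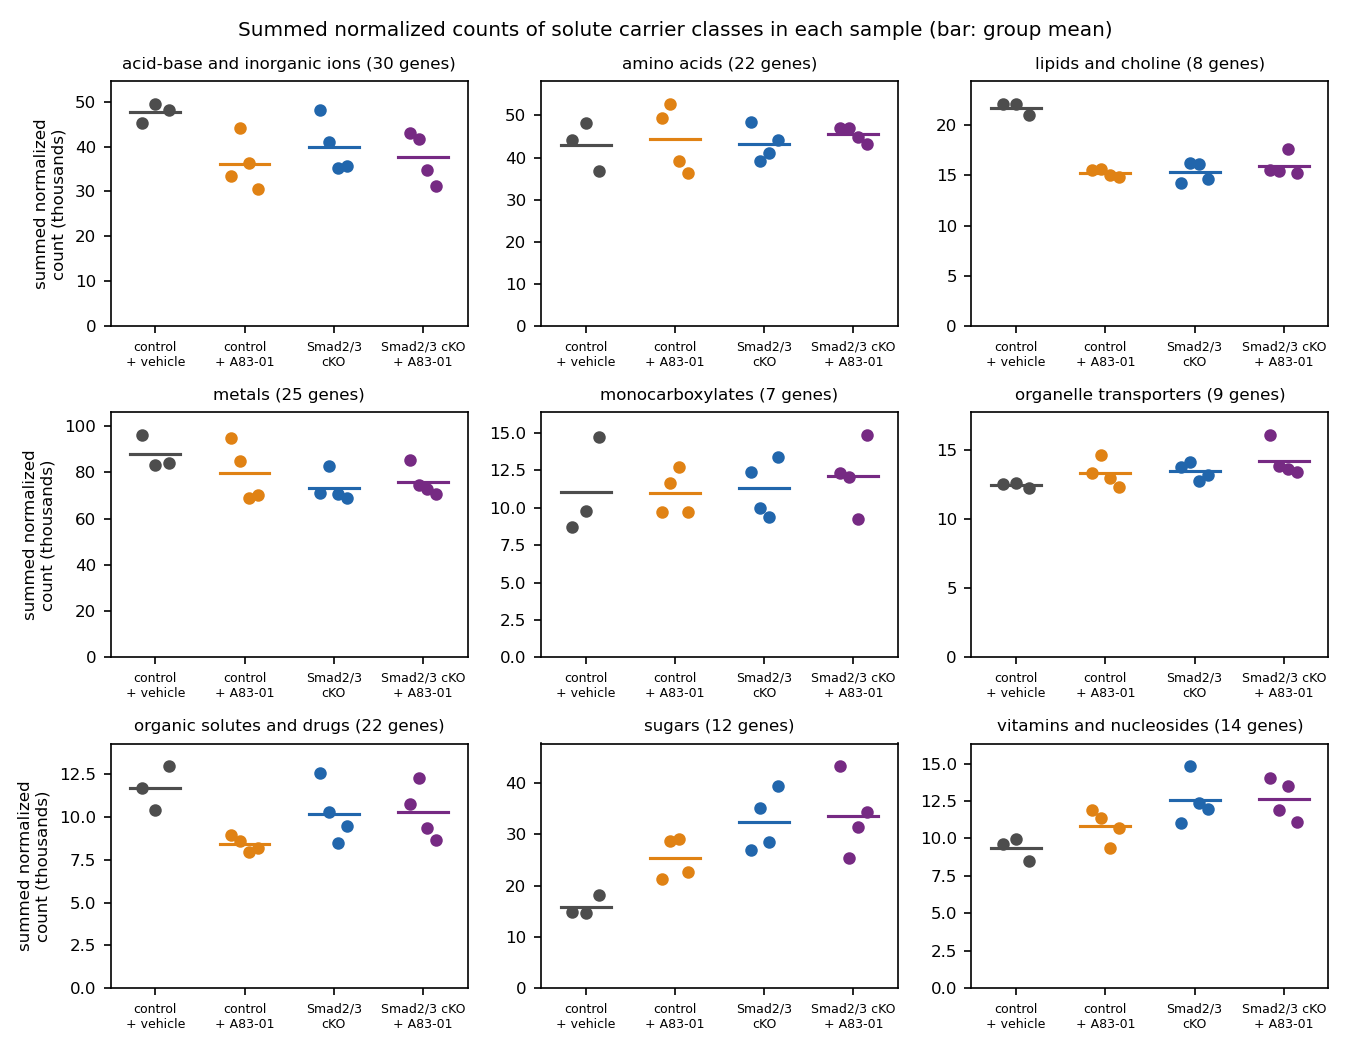
Summed normalized counts (axes from 0) of the 9 classes of solute carrier genes in each sample, with the group mean as a bar. The sugar class, in which *Slc5a3* and *Slc5a8* make most of the difference, ranges from 14745 to 18107 in control + vehicle and from 21203 upward in the other groups, and lipid and choline carriers lie at 20967 to 22116 in control + vehicle and at 17651 or less in the other groups. Sums were not tested.

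The *Smad2/3* cKO organoids grown with A83-01 show the effect of the inhibitor on the background of the deletion. No solute carrier gene passed the thresholds in *Smad2/3* cKO + A83-01 vs. *Smad2/3* cKO, and 0 of all 12998 genes tested were higher and 0 lower (0% in each direction, limma). At an unadjusted p below 0.05 there were 7 of the 149 (4.7%, all genes 4.26%), and the median log2 fold change was 0.07. The smallest p belonged to *Slc37a4*, the glucose-6-phosphate transporter of the endoplasmic reticulum. It was at 342, 273, 273 and 501 in *Smad2/3* cKO and at 681, 728, 471 and 873 in *Smad2/3* cKO + A83-01 (1.00, standard error 0.25, adjusted p = 0.994). For the 24 genes that differed between *Smad2/3* cKO and control + vehicle, the fold changes of A83-01 in *Smad2/3* cKO ran up to 0.77 in size (*Slc27a2*), with standard errors such as 0.36 for *Slc46a2* (0.50) and 0.23 for *Slc17a4* (0.02). Without *Smad2/3* cKO replicate 2 the count was 0 as well. A missed threshold with 4 samples a group does not show that the levels were equal.

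With the inhibitor in both genotypes (*Smad2/3* cKO + A83-01 vs. control + A83-01), no solute carrier gene passed either. Of all 12915 genes tested, 0.0232% were higher and 0 lower. At an unadjusted p below 0.05 there were 22 of the 149 (14.8%, all genes 9.52%), shares not matched for level. *Slc13a2* came closest, at 158 to 386 in control + A83-01 and 891 to 2752 in *Smad2/3* cKO + A83-01 (2.43, standard error 0.38, adjusted p = 0.0764). *Slc4a11* was lower without overlap, at 1093 to 1449.5 against 332 to 710.2 (−1.20, standard error 0.23, adjusted p = 0.0981). The neutral amino acid transporter *Slc1a4*, named after its values were seen, was at 416, 535, 426 and 323 in control + A83-01 and at 759, 706, 858 and 846 in *Smad2/3* cKO + A83-01 (0.92, standard error 0.18, adjusted p = 0.104). *Slc4a8*, also named after its values were seen, was higher without overlap too (1.43, standard error 0.29, adjusted p = 0.104, limma).

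**Figure D4:**
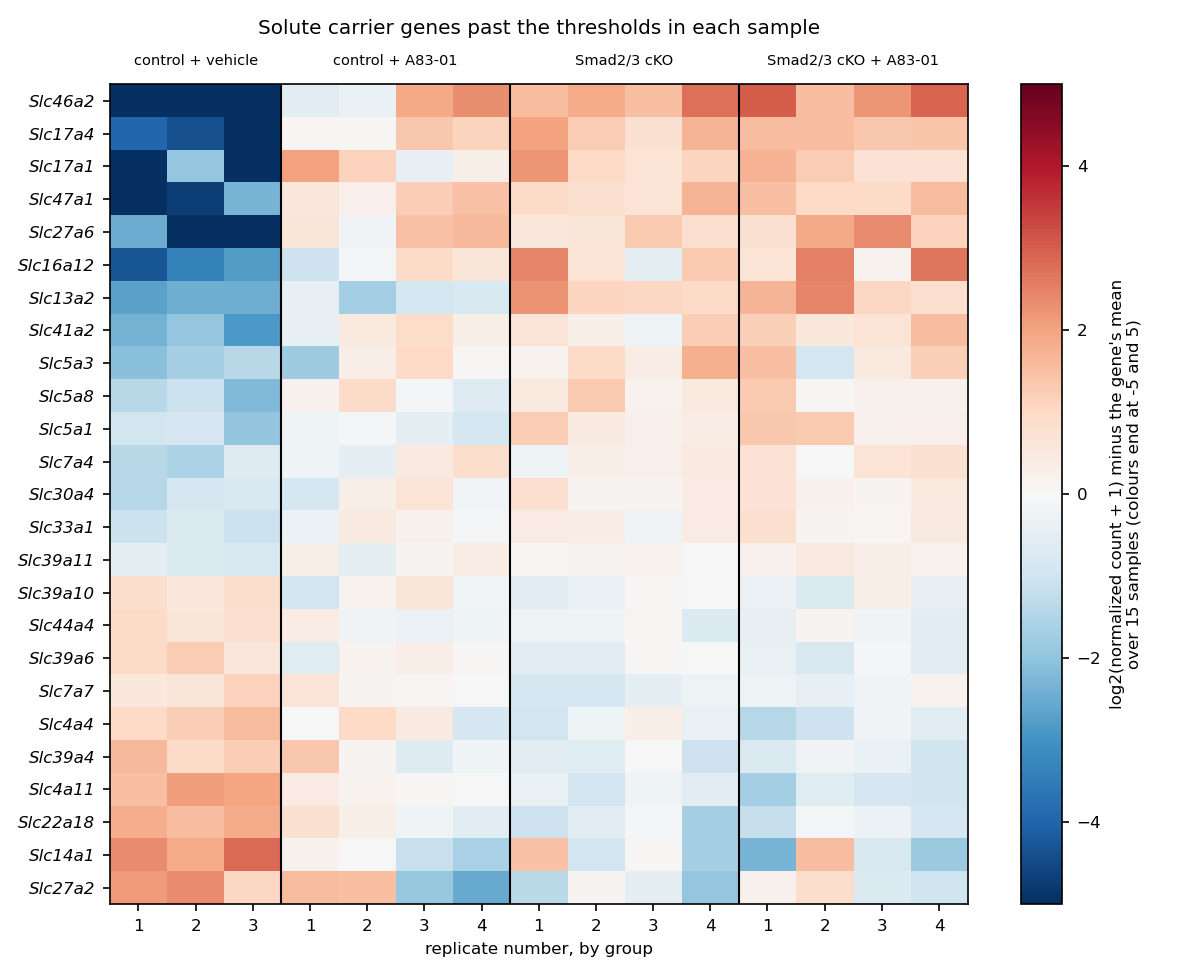
Log2 of the normalized count plus 1, minus the mean of the gene over 15 samples (colour, ending at −5 and 5), for the 25 genes in each sample, columns by group and replicate number. The genes were chosen for passing the thresholds, mostly against control + vehicle, so a difference of those 3 columns from the others is set by the choice. Control + A83-01 replicates 1 to 4 vary among themselves, for example in *Slc27a2* and *Slc39a4*.

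Whether the inhibitor acted differently in the 2 genotypes was tested directly, as the effect of A83-01 in *Smad2/3* cKO minus that in control, in 1 fit of all 15 samples. It passed for 3 solute carrier genes, all lower (2.01% of the 149), where 0.0995% of all 13066 genes were higher and 0.452% lower. *Slc46a2* and *Slc47a1* among them averaged below 10 in control + vehicle and reached the minimum mean only through the other groups. The share of the 149 is therefore a description. The difference was −7.23 (standard error 0.93, adjusted p = 0.000863) for *Slc46a2*, −5.34 (0.57, 0.000197) for *Slc17a4* and −4.89 (0.82, 0.00679) for *Slc47a1*. All 3 were low in control + vehicle and high in the other 3 groups, so the size of the difference depends on the pseudocount (−8.63 to −4.95 for *Slc46a2* over the alternatives). The calls of *Slc46a2* and *Slc17a4* held without each sample in turn, while that of *Slc47a1* was lost without any of 12 of the 15 samples, *Smad2/3* cKO replicate 2 among them. With the replicate block *Slc47a1* did not pass either (−4.71, adjusted p = 0.0103, limma), although the replicate numbers pair the samples in the control groups only. At an unadjusted p below 0.05 there were 39 of the 149 (26.2%, all genes 14.3%), shares not matched for level.

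Genes that work with solute carriers were looked at from lists. *Emb* (embigin) is a chaperone that escorts monocarboxylate transporters to the plasma membrane. It was at 12149, 11836 and 10331 in control + vehicle, between 27893 and 29146 in control + A83-01, between 28312 and 42215 in *Smad2/3* cKO and between 34271 and 45676 in *Smad2/3* cKO + A83-01. The log2 fold changes were 1.32 (standard error 0.15, adjusted p = 0.00184) and 1.60 (0.17, 0.000702), and the difference of the A83-01 effect between genotypes was −1.20 (adjusted p = 0.00861). The other chaperone tested, *Bsg* (basigin), did not pass (0.25 and 0.32, adjusted p = 0.626 and 0.241). *Sgk1*, a kinase that regulates many carriers and channels, was at 2069, 1506 and 1698 in control + vehicle, 3456, 4494, 5000 and 4051 in control + A83-01 and 8433, 5705, 5360 and 10407 in *Smad2/3* cKO (1.27 and 2.05, adjusted p = 0.00467 and 0.00104). Of the osmotic response list, which holds *Sgk1*, 2 genes did not pass. *Akr1b3* was at 24756, 14607 and 18543 in control + vehicle and at 10787, 7110, 19564 and 9358 in *Smad2/3* cKO (−0.79, adjusted p = 0.121), and *Nfat5* overlapped too (0.52, adjusted p = 0.378). *Hspa4l*, the other gene of the 4 on this list that passed, was higher in *Smad2/3* cKO (0.90, adjusted p = 0.00529), as were 2 of the 8 genes of the NRF2 list (targets of NRF2 and its own gene *Nfe2l2*, all genes 4.08% higher), *Gclm* (0.76, adjusted p = 0.00855) and *Srxn1* (0.75, adjusted p = 0.00905). Other genes of the NRF2 list were lower without overlap and did not pass, *Nfe2l2* at 4594 to 5535 against 3311 to 4328 (−0.41, adjusted p = 0.0602), *Txnrd1* at 9328 to 9793 against 5335 to 7763 (−0.61, adjusted p = 0.0289) and *Gsr* at 8757 to 11592 against 7376 to 7760 (−0.48, adjusted p = 0.0397), and the median of the 8 was −0.12. Without *Smad2/3* cKO replicate 2, *Emb* (1.51, adjusted p = 0.00173), *Sgk1* (2.16, 0.00192) and *Hspa4l* (0.99, 0.00506) still passed, and *Gclm* (0.80, 0.0158) and *Srxn1* (0.79, 0.0152) did not. None of 8 subunits and regulators of the Na/K-ATPase, 15 genes of the ATF4 list (targets outside the family and *Atf4* itself) and 5 organic anion transporting polypeptides passed in either comparison, which for lists of this size is near the shares of all genes (4.08% and 3.3%, and 1.19% and 1.08%). Of 40 mitochondrial *Slc25a* carriers tested, 6 were higher and 1 lower in *Smad2/3* cKO (all genes 4.08% and 3.3%), and 0 passed with A83-01 in control (all genes 1.19% and 1.08%). Without *Smad2/3* cKO replicate 2, 2 were higher and 1 lower (all genes 2.64% and 2.33%).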

How the data were processed

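The authors prepared low-input cDNA libraries of 15 organoid samples, estimated counts per gene with Salmon 1.4.0 (GRCm39) and divided them by DESeq2 1.32.0 size factors. The deposited values are these normalized counts, treated as a signal, since whole reads were not recovered and raw depth is unknown. Symbols were matched for 16697 of 16729 identifiers. For each comparison, log2(value + 1) was fitted with limma 3.58.1 in R 4.3.3 (lmFit, eBayes with trend) for genes averaging 10 or more in its samples. Benjamini-Hochberg adjustment covered all of them, and thresholds were those of the study (p below 0.01, 1.4-fold). The fits were tested on simulated data. Log2 correlations between replicates ran from 0.948 to 0.975. In the control groups the replicate numbers pair the samples: same-numbered samples share a label number, and deviations of the 3 pairs correlated at 0.365 to 0.427 (mean of other combinations −0.136). In the others, 1 number at most is shared and not every pair correlated (lowest 0.015, −0.161 and −0.175). Since 1 number is on both genotypes, it may not identify a mouse. P-values measure the spread between these organoid samples. The solute carrier genes and all lists were chosen with earlier results of these data known. Named are the genes past the thresholds with up to the 10 largest rises and 10 largest falls per comparison, the 10 most abundant per kb, those at the limit of 50, and list genes past the thresholds. Gene positions are those of GRCm38 (GENCODE annotation, matched by identifier), not of the build used for counting. Alternatives tried were other pseudocounts (0.1, 10), no filter or a minimum of 50, quantile normalization, rescaling to 1 total, no trend, sample weights, the replicate block, a label number covariate, fitting all 4 groups, a p of 0.05, dropping the fold limit, and omission of single samples.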

Additional observations from a re-analysis of the deposited data

Results flagged for a closer look

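In groups of 4 samples, single values lay apart from the other 3 by Dixon's criterion for 10 of 108 groups examined among the genes named, and for 26 of 447 among all 149 genes, where chance gives about 1 in 20. In *Smad2/3* cKO replicate 1, *Slc13a2* was at 2407 (the other 3 at 997 to 1075), *Slc17a1* at 175.1 (60.0 to 78.1) and *Slc5a1* at 1218 (600.0 to 696). *Slc33a1* was at 1769 in *Smad2/3* cKO replicate 3 (2602 to 2664). In control + A83-01 replicate 1, *Slc35a4* was at 5495 (3782 to 3957), *Slc44a4* at 5788 (3674 to 3989) and *Slc7a7* at 1563 (995 to 1079.9). In *Smad2/3* cKO + A83-01, *Slc5a8* was at 11199 in replicate 1 (4617 to 5193), and in replicate 2 *Slc14a1* was at 2577 (178 to 516) and *Slc7a4* at 3866 (6114 to 6309). Of the 26 values, 6 were in *Smad2/3* cKO + A83-01 replicate 2 and 5 in control + A83-01 replicate 1.

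The effect of A83-01 differed between the genotypes for *Slc46a2* (−7.23 on the log2 scale, effect in *Smad2/3* cKO minus that in control), *Slc17a4* (−5.34) and *Slc47a1* (−4.89), by a contrast in limma with adjusted p-values of 0.000863, 0.000197 and 0.00679. The call of *Slc47a1* was lost with the replicate block (−4.71, adjusted p = 0.0103, limma) and when most single samples were left out. The replicate numbers pair the samples in the control groups only. *Slc46a2* and *Slc47a1* averaged below 10 in control + vehicle.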

How the results depend on the processing

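For A83-01 in control organoids, where 7 solute carrier genes (and 2.27% of all genes) passed, the count was 3 without a filter (all genes 0.873%), 4 with eBayes without trend (1.54%), 13 with sample weights (4.47%), 11 with the label number as covariate (3.41%) and 18 at an adjusted p below 0.05 (7.34%). Leaving out 1 sample gave 2 (without control + vehicle replicate 2, all genes 0.377%) to 8 (without control + A83-01 replicate 1, 1.91%). With the replicate block it was 9 (3.07%), 6 of them among the 7. For *Smad2/3* cKO vs. control + vehicle, where 24 (all genes 7.38%) passed, it was 9 with eBayes without trend (3.44%), 8 with the replicate block (1.6%), although the numbers do not pair these samples, and 48 at an adjusted p below 0.05 (18.3%). Leaving out 1 sample gave 7 (without control + vehicle replicate 1, 2.13%) to 23 (without *Smad2/3* cKO replicate 3, 7.55%). For the difference of the A83-01 effect between genotypes, with 3 genes (all genes 0.551%), it was 6 at an adjusted p below 0.05 (1.59%), 2 with the replicate block (0.482%) and 2 to 3 without 1 sample. The block pairs the samples in the control groups only. In both other comparisons the count was 0 under every alternative run. The 34 fold changes named for called genes were refitted 696 times in all: 529 kept the call, 167 lost it and 0 changed sign. The cause was not tested. The call held in every alternative for 9 values, those of *Slc46a2* and *Slc17a4* in both main comparisons and in the difference between genotypes, and those of *Slc13a2*, *Slc41a2* and *Slc4a11* in *Smad2/3* cKO. *Slc46a2* averaged below 10 in control + vehicle and reached the minimum mean only through the other groups, so its kept calls are a description. The same holds for the refits of *Slc16a12*, *Slc17a1*, *Slc27a6* and *Slc47a1* among the 696. Fits that leave control + vehicle with 2 samples estimate its spread from fewer values.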

Other observations

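Of the 78 genes with an *Slc* symbol below the mean of 50, 26 reached the minimum for the comparison of *Smad2/3* cKO with control + vehicle. The values of 3 of them are given here, named after their values were seen. *Slc7a9* and *Slc6a18*, amino acid transporters of kidney and gut, were listed at 0 in the 3 control + vehicle samples and reached the minimum only through the *Smad2/3* cKO samples, so their values are given as a description. *Slc7a9* was at 3.77 to 10.3 in control + A83-01, and at 157, 11.6, 20.5 and 20.5 in *Smad2/3* cKO. In *Smad2/3* cKO + A83-01 it was at 26.9, 289, 25.2 and 16.5, so that 1 sample of each *Smad2/3* cKO group held most of its counts. *Slc6a18* was at 0, 1.43, 20.8 and 14.9 in control + A83-01 and at 20.7, 15.2, 23.8 and 29.1 in *Smad2/3* cKO. *Slc23a4* was at 62.2, 107 and 147 in control + vehicle and at 9.17, 18.3, 10.5 and 12.7 in *Smad2/3* cKO, averaging above 10 in both groups, and was lower (−2.92 on the log2 scale, adjusted p = 0.00401, limma). Without *Smad2/3* cKO replicate 2 it was at −3.10 (adjusted p = 0.00637).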
